A study of Mus musculus with 9 samples.

Results

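The 9 arrays of this study of 3T3-L1 pre-adipocytes were compared by the replicate number in their titles, 1, 2 or 3. Each number holds 1 array of each of the 3 groups, so the arrays form 3 replicate sets of 3, and all 9 of the 9 arrays entered the comparison. 3T3-L1 is a mouse embryonic fibroblast line that stops dividing at confluence and becomes adipocytes when given a hormonal cocktail. One group was treated with vehicle. The other groups were given 0.5 mM IBMX, a phosphodiesterase inhibitor that raises cAMP, and 1 µM dexamethasone (Dex), a synthetic glucocorticoid, for 6 h, after transfection with either a scrambled control siRNA or a CD24 siRNA (CD24 is a short, heavily glycosylated protein of the cell surface, from the gene Cd24a). All cells had been held for 48 h after confluence. The labels do not say whether vehicle cells received an siRNA, nor that a replicate number marks a culture of its own. Each gene's mean in each group was removed before the sets were compared, which takes out the average effect of each group but not an effect that differed from set to set.

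Confluent 3T3-L1 cells leave the cell cycle, and the transcripts of mitosis fall when they do. Interferons, secreted when cells sense foreign nucleic acid or virus, induce a shared group of antiviral transcripts, many of which carry a DNA element called the ISRE in their promoters. Small nucleolar RNAs (snoRNAs) guide the chemical modification of ribosomal RNA, and most are cut from the introns of host genes that are often tied to translation.

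Gene expression is given on the log2 scale, where a difference of 1 is a doubling. Of 12630 genes tested, 2923 (23.1%) differed between set 1 and the mean of sets 2 and 3 at an adjusted p under 0.05 in limma, 1772 higher in set 1 (14.0%) and 1151 lower (9.11%). Sets 2 and 3 differed from each other in 675 genes (5.34%), with 385 higher in set 2 (3.05%) and 290 lower (2.30%). At least 2-fold differences numbered 126 higher and 86 lower for set 1, and 63 higher and 35 lower for set 2 against set 3. Of the 2923 genes, 2911 had the same sign in all 3 groups, against 55.9% of all genes tested. All 675 did so for sets 2 and 3, against 42.2%. The test passes genes whose differences are alike in the 3 groups, so this agreement is largely built in and is no separate support. With each array centred on its median, 1992 genes were higher and 748 lower in set 1, which is 72.7% higher in place of 60.6%, and the median over all genes tested moved from 0.03 to 0.08. The typical 95% interval reached 0.22 either side of a set 1 difference and 0.25 either side of a set 2 difference. Leaving out 1 array changed the totals to between 1160 and 3310 for set 1, and to between 191 and 557 for sets 2 and 3. List counts given below without an array are to be read beside those totals, since calls over all genes mostly fell as well. There is 1 set of each number, so whatever made the sets differ (cells, RNA preparation, hybridisation) cannot be told apart, and the p-values measure agreement over the 3 groups.

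Set membership accounted for a median of 36.2% of a gene's sum of squares over the 9 arrays, and group membership for 28.3%. The set share was the larger in 6973 of the 12630 genes. Among the 3025 genes (24.0%) that differed between sets in any way by the limma F test, the commonest pattern was set 1 standing high, in 1154 (38.1%), followed by set 1 standing low in 559 (18.5%). The fit that kept the set as a block called 3696 genes (29.3%) between IBMX/Dex and vehicle, and 1505 without the replicate block.

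Cd24a, the target of the siRNA, checks the labels. Its log2 expression in replicates 1, 2 and 3 was 8.88, 9.92 and 9.49 with vehicle, 11.19, 11.73 and 11.81 with scrambled siRNA and IBMX/Dex, and 10.15, 10.16 and 11.72 with CD24 siRNA and IBMX/Dex. The CD24 siRNA arrays labelled replicates 1 and 2 lay below every scrambled array, while the array labelled CD24 siRNA replicate 3 lay within the scrambled range. The set 1 difference in Cd24a was -0.73 ± 0.25 (standard error), which missed the threshold (limma adjusted p = 0.0640). Of the markers of other lineages above the filter, 0 of 2 endothelial, 0 of 3 epithelial and 0 of 4 osteoblast and chondrocyte markers passed in limma in either comparison (1 of the last at an unadjusted p under 0.05, between sets 2 and 3). The muscle genes Tnnt2 (0.59) and Acta1 (0.40) of 6 tested were higher in set 1, and the macrophage gene Cd14 of 6 tested was lower in set 2 than in set 3. Dlk1, the pre-adipocyte marker, was bright at a mean of 12.27.

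**Figure D1:**
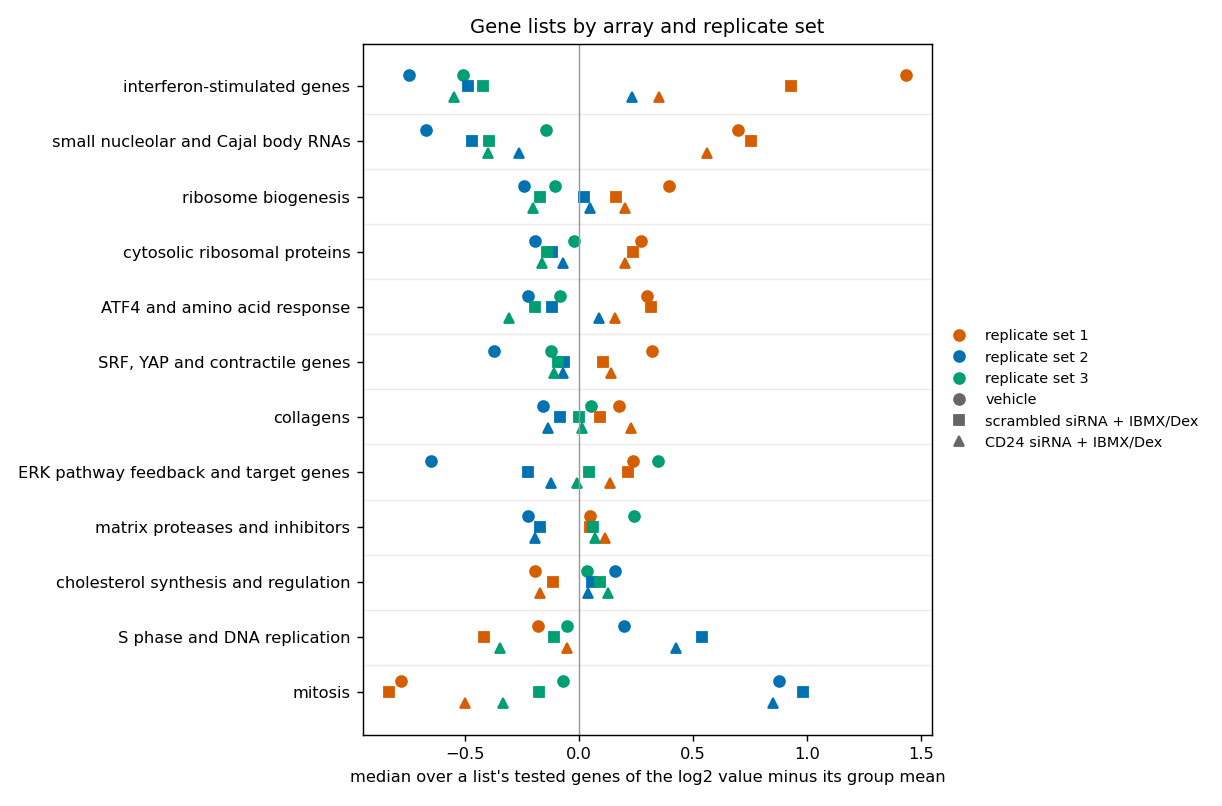
Median over the tested genes of a list of the log2 value minus the gene's mean in its group, 1 row per list. Colour is the replicate set and shape the group. Set 1 (orange) stands to the right for interferon-stimulated genes and for small nucleolar RNAs, and to the left for mitosis, where set 2 (blue) stands to the right on all 3 arrays.

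Interferon-stimulated genes were higher in set 1. Of 36 written in the list, 28 were tested, 4 lay below the filter and 4 were not analysed here. In set 1, 26 of the 28 were higher and 0 lower, with a median difference of 1.36 against 0.03 over all genes tested. The 2 that did not pass were Ifit2 (0.31) and Ifit3 (-0.13). Between sets 2 and 3, 0 of 28 passed in limma (1 at an unadjusted p under 0.05), with a median of 0.16.

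Promoters of the leading interferon genes and mitosis genes are shown here because each of these groups moved together. Bases are from RefSeq promoters of GRCm38.p6, 250 bases before to 50 after the start, printed in the direction of the gene. They are the first 3 of each list, by size of the set 1 difference among passing members, that held a match. In the first 3, capitals mark matches on either strand to GAAA, any 2 bases and GAAA again, the core of the ISRE.
Ifit1 (chr19:34640639-34640938, plus strand): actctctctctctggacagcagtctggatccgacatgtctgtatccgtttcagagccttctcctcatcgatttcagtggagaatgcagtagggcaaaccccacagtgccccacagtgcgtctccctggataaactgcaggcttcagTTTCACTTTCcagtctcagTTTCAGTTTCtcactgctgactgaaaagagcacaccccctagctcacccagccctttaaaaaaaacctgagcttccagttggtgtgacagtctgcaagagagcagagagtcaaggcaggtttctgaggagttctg
Igtp (chr11:58199306-58199605, plus strand): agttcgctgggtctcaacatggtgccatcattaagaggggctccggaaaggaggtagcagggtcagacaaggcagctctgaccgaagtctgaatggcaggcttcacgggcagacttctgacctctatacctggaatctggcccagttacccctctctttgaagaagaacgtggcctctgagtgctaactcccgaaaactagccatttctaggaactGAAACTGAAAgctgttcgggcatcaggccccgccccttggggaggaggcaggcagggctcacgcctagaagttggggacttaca
Bst2 (chr8:71537423-71537722, minus strand): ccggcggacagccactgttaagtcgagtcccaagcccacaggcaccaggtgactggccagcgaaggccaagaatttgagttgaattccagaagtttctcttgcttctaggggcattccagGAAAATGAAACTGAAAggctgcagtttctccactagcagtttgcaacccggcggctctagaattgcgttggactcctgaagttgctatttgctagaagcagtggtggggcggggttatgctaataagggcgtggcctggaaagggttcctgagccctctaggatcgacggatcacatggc
In the next 3, capitals mark TTTGAA, the core of the cell cycle homology region element bound by the DREAM complex, and CCAAT, bound by NF-Y, again on both strands.
Kif11 (chr19:37376132-37376431, plus strand): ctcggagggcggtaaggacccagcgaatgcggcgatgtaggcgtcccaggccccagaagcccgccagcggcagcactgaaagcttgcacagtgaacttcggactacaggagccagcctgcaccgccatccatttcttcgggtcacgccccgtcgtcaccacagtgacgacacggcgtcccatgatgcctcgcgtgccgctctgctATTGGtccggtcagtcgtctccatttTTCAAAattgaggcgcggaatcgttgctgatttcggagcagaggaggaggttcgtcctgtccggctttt
Ccnb2 (chr9:70421505-70421804, minus strand): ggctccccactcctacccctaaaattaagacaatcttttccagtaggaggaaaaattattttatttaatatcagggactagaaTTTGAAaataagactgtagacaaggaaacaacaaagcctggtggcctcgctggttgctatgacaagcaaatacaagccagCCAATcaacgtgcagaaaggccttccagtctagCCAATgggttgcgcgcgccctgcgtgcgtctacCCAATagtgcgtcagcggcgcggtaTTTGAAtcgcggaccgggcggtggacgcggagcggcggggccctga
Mki67 (chr7:135716330-135716629, minus strand): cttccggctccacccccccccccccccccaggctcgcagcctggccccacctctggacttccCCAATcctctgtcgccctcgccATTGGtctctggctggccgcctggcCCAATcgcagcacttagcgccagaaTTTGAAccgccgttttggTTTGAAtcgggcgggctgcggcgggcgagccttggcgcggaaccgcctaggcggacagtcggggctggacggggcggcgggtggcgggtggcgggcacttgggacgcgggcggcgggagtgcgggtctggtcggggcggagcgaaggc
Where one match overlaps another the capitals run on, as in Bst2. The ISRE core was found in 13 of 21 interferon-stimulated promoters (61.9%), 1 of 22 mitosis promoters (4.55%) and 2.85% of the promoters of all 9893 tested genes that had one. TTTGAA and CCAAT occurred together in 16 of 22 mitosis promoters (72.7%), 1 of 21 interferon-stimulated promoters (4.76%) and 4.83% of all promoters. A match is a description of letters, not of binding.

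Ifit1, which binds viral RNA and blocks its translation, read 11.62, 8.51 and 8.64 with vehicle in replicates 1, 2 and 3, 10.17, 7.07 and 7.91 with scrambled siRNA, and 8.38, 8.63 and 7.04 with CD24 siRNA. Set 1 was the highest array in the vehicle and scrambled groups but not with CD24 siRNA, where replicate 2 was above it. The difference was 2.09 ± 0.47, or 4.25-fold (limma adjusted p = 0.0123). Igtp, an interferon-inducible GTPase, stood at 9.38, 6.58 and 6.51 with vehicle, 7.66, 5.52 and 5.86 with scrambled siRNA, and 6.77, 6.48 and 5.60 with CD24 siRNA. Its set 1 array was the highest in each group, by 1.85 ± 0.32, or 3.60-fold (limma adjusted p = 0.00440). Bst2, the membrane protein tetherin that holds budding virus at the cell surface, read 10.10, 7.85 and 8.68, then 10.41, 7.62 and 8.45, then 9.60, 8.65 and 7.99 in the same order. All 3 set 1 arrays of Bst2 exceeded the other 6, and the difference was 1.83 ± 0.26 (adjusted p = 0.00174). Zbp1, a sensor of Z-form nucleic acid, was 1.90 ± 0.32 higher (adjusted p = 0.00393).

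The other interferon genes that led the set 1 difference were Rtp4 (2.11), the deubiquitinase-like ISG15 protease Usp18 (1.99), Xaf1 (1.89), Oasl2 (1.86), the ubiquitin-like modifier Isg15 (1.83) and the GTPase Irgm1 (1.78). In 17 of the 28 genes the set 1 array was the highest in each of the 3 groups (20.0% of all genes tested), and in 9 the 3 set 1 arrays lay above the other 6 (10.1%). The size of the difference varied by group. Its median over the list was 2.15 with vehicle, 1.40 with scrambled siRNA and 0.53 with CD24 siRNA, where the replicate 2 array was also high. Set 2 stood above set 3 by a median of 0.82 with CD24 siRNA, and by -0.07 and -0.18 with vehicle and scrambled siRNA. No member passed the limma test of whether its set difference depended on IBMX/Dex, and a difference between the siRNA groups was not tested. The list fell with IBMX/Dex by a median of 1.60 in set 1, 0.22 in set 2 and 0.82 in set 3. Without the scrambled replicate 1 array 10 members passed, and without the vehicle replicate 1 array 12. Over all genes tested the set 1 count went from 2923 to 1160 and 1446 in those runs. Ifit1, Rtp4, Usp18 and Oasl2 did not pass in either case.

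Of 15 nucleic acid sensors 4 were higher in set 1 and 1 lower (median 0.11), among them the double-stranded RNA receptor Tlr3 (0.81 ± 0.20), the kinase Eif2ak2 (0.67 ± 0.14) and the transcription factor Irf1 (0.61 ± 0.12). Of 14 antigen presentation genes 7 were higher and 0 lower (median 0.35). They included the immunoproteasome subunit Psmb10 (1.26 ± 0.17), the peptide transporter Tap1 (0.88 ± 0.16), the peptide-loading chaperone Tapbp (0.76 ± 0.10) and the class I heavy chain H2-K1 (0.62 ± 0.10). The chemokine Ccl5 was 1.30 ± 0.15 higher (limma adjusted p = 0.000817). Its array values were 10.25, 9.19 and 8.87 with vehicle, 10.82, 9.12 and 8.97 with scrambled siRNA, and 10.23, 9.64 and 9.01 with CD24 siRNA, with the 3 set 1 arrays above the other 6. Of 25 inflammatory and NF-kB targets in all, 7 were higher and 2 lower in set 1, with a median of 0.12. Without scrambled replicate 1 or vehicle replicate 1, 1 and 0 of the sensors were higher. Of the NF-kB targets 4 were higher without either of those arrays or without scrambled replicate 3.

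**Figure D2:**
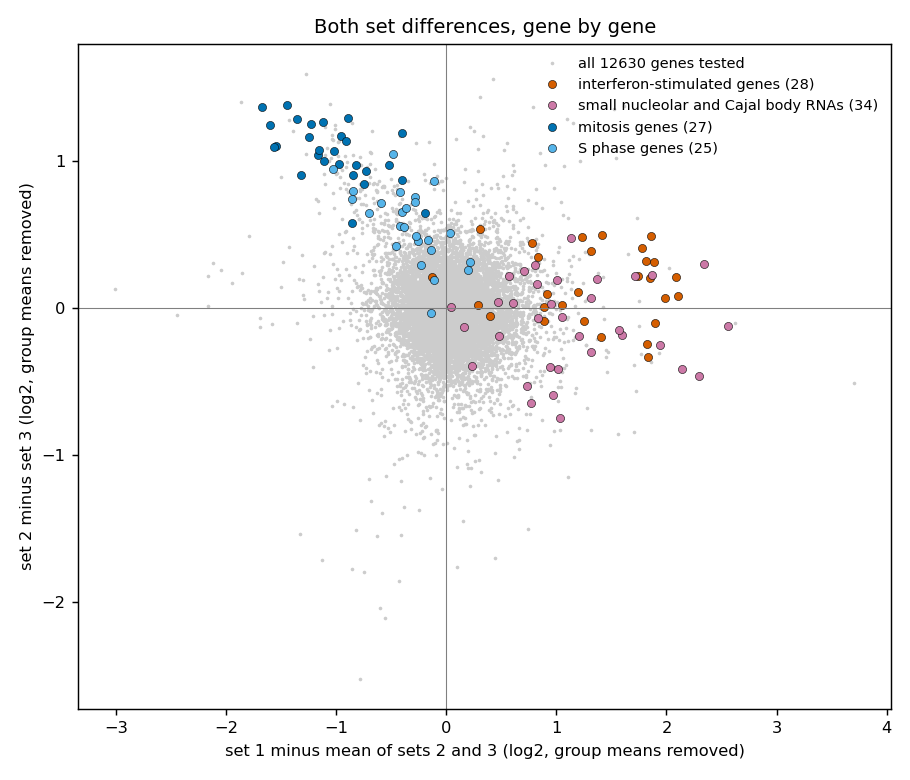
Each point is a gene: the horizontal axis is the set 1 minus sets 2 and 3 difference and the vertical axis the set 2 minus set 3 difference, both in log2 units with group means removed. Mitosis genes (dark blue) lie at upper left, low in set 1 and higher in set 2 than in set 3, while interferon genes (orange) and small nucleolar RNAs (pink) lie at right around 0 on the vertical axis.

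Mitosis genes ordered the sets. Of 27 tested, 26 were lower in set 1 and 0 higher, with a median of -1.02, and all 27 were higher in set 2 than in set 3, with a median of 1.08. The exception in set 1 was Cdca8 (-0.19). Set 2 was the highest set for 27 of 27, set 1 the lowest for 24 and set 3 the lowest for 3. The set 2 array exceeded the set 3 array in each of the 3 groups for 27 of 27 (19.8% of all genes tested), the set 1 array was the lowest in each group for 19 (11.5%), and the 3 set 1 arrays lay below the other 6 for 17 (5.19%). The 3 groups gave like values: the median set 1 difference was -1.17 with vehicle, -1.25 with scrambled siRNA and -0.75 with CD24 siRNA, and the set 2 to set 3 difference was 0.93, 1.18 and 1.22. In the median mitosis gene the set took 92.8% of the sum of squares and the group 3.79%.

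Kif11, the kinesin that separates the spindle poles, read 7.41, 9.79 and 8.62 with vehicle in replicates 1, 2 and 3, 7.56, 10.21 and 8.77 with scrambled siRNA, and 8.06, 10.10 and 8.62 with CD24 siRNA. The order set 1, set 3, set 2 held in each group and no arrays of different sets overlapped. Set 1 was lower by a difference of -1.68 ± 0.12 (limma adjusted p = 0.000229) and set 2 was 1.37 ± 0.14 above set 3 (adjusted p = 0.00245). Mki67, the Ki-67 protein of dividing cells, was 8.01, 10.26 and 9.25 with vehicle, 8.13, 10.42 and 9.26 with scrambled siRNA, and 8.58, 10.36 and 9.24 with CD24 siRNA. It too kept its 3 levels apart, with differences of -1.56 ± 0.11 and 1.10 ± 0.13. Ccnb2, a mitotic cyclin, differed by -1.60 ± 0.14 and 1.25 ± 0.16. The spindle checkpoint genes Mad2l1 (-1.55 and 1.10) and Bub1 (-1.45 and 1.38) differed in the same directions. So did the kinetochore genes Nuf2 (-1.27 and 1.59) and Ndc80 (-0.89 and 1.29), and the cytokinesis kinesin Kif20a (-1.36 and 1.28). In Ndc80, though, the set 1 array with CD24 siRNA (7.94) lay above the set 3 array (7.68).

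S phase genes had smaller medians. Of 25 tested, 10 were lower in set 1 and 0 higher (median -0.29), and 11 were higher in set 2 than in set 3 with 0 lower (median 0.56). The DNA polymerase subunit Pole differed by -1.03 ± 0.15 in set 1 and by 0.95 ± 0.18 between sets 2 and 3. The ribonucleotide reductase subunit Rrm1 differed by -0.48 ± 0.12 and 1.05 ± 0.14. Thymidine kinase Tk1 was 8.12, 9.31 and 8.88 with vehicle, 7.99, 9.18 and 8.38 with scrambled siRNA, and 8.02, 9.33 and 8.32 with CD24 siRNA, so set 2 was the highest in each group. These counts fell when single arrays were left out, as did the counts over all genes tested. In set 1, 3 S phase genes passed without scrambled replicate 1, where 1160 of all genes did in place of 2923. Without scrambled replicate 3 or vehicle replicate 1, 6 S phase genes passed. Between sets 2 and 3, 1 passed without scrambled replicate 2, 4 without scrambled replicate 3, 3 without CD24 siRNA replicate 2 and 2 without CD24 siRNA replicate 3. A separate list of replication-dependent histone genes, with only 4 tested, went the other way in set 1: 2 were higher and 0 lower (median 0.37). In set 2, 1 of the 4 was higher than in set 3 and 0 lower (median 0.42).

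Cdkn1a, the p21 inhibitor of cyclin-dependent kinases, was 11.34, 11.62 and 12.29 with vehicle, 10.98, 11.80 and 12.22 with scrambled siRNA, and 11.49, 11.66 and 12.23 with CD24 siRNA. Set 1 held the lowest and set 3 the highest array of each group, with a set 1 difference of -0.70 ± 0.11 and a set 2 minus set 3 difference of -0.55 ± 0.13. Of 18 G1 cyclin and inhibitor genes, 1 was higher and 6 lower in set 1. The pocket proteins Rb1 (-0.59), Rbl2 (-0.54) and Rbl1 (-0.63) were among the lower ones, and Myc (0.63) was the higher one. Without scrambled replicate 1, 3 were lower.

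Small nucleolar and Cajal body RNAs were higher in set 1. Of 34 tested on the list, 30 were higher and 0 lower, with a median of 1.01, and 1 of 34 was lower in set 2 than in set 3 (Snord47, -0.59). All 34 had their highest set mean in set 1. Across all genes of the snoRNA type, 58 of 70 were higher in set 1 and 1 lower (median 0.94). The set 1 array was the highest in each of the 3 groups for 31 of 34, and in 25 of 34 the 3 set 1 arrays lay above the other 6.

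Snora74a was 10.59, 7.92 and 8.34 with vehicle, 11.14, 8.28 and 8.32 with scrambled siRNA, and 10.74, 8.39 and 8.29 with CD24 siRNA. The set 1 arrays stood far above the rest, which lay between 7.92 and 8.39, and the difference was 2.56 ± 0.12, or 5.91-fold (limma adjusted p = 2.44e-05). Snora75 (2.34 ± 0.19), Snora44 (2.14 ± 0.17) and the Cajal body RNA Scarna2 (1.31 ± 0.09) followed. The host genes from which snoRNAs are cut were higher too: of 11 tested, 8 were higher and 0 lower in set 1 (median 0.57), among them Snhg17 (1.07 ± 0.14) and Snhg12 (0.81 ± 0.10). This list of hosts was chosen after these values were seen. Of 155 miRNA genes above the filter, 9 were higher and 35 lower in set 1, with a median of -0.09.

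Of 21 cytosolic ribosomal protein genes, 11 were higher and 1 lower in set 1 (median 0.35), and 0 passed in limma between sets 2 and 3 in either direction (3 at an unadjusted p under 0.05). Rpl13 was higher by 1.15 ± 0.13 and Rpl14 by 0.75 ± 0.08, while Rpl3 was lower (-0.53 ± 0.08). Of 23 ribosome biogenesis genes 11 were higher and 0 lower (median 0.45), including the snoRNP core protein Nop58 (0.62 ± 0.10). Without vehicle replicate 1, 5 of these passed, and 6 without scrambled replicate 1. Of 24 nuclear-encoded oxidative phosphorylation genes 11 were higher and 1 lower (median 0.22), led by Ndufa1 (1.27 ± 0.17) and Cox4i1 (1.10 ± 0.10), and 7 were higher without scrambled replicate 1. Cox4i1 read 10.47, 9.11 and 9.56 with vehicle, 10.71, 9.37 and 9.56 with scrambled siRNA, and 10.39, 9.45 and 9.49 with CD24 siRNA, with the set 1 arrays above all others.

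Of 24 genes of the ATF4 and amino acid response, 12 were higher and 0 lower in set 1 (median 0.41). The transcription factor Atf4 was higher by 0.65 ± 0.10, Ddit3, which encodes the stress factor CHOP, by 0.91 ± 0.09 and the amino acid transporter Slc7a5 by 0.72 ± 0.13. Of 19 unfolded protein response genes 7 were higher and 0 lower (median 0.21), with Hspa5, the chaperone BiP, at 0.37 ± 0.09. Of 23 SRF, YAP and contractile genes 8 were higher and 0 lower (median 0.29), including Ccn1 (1.46 ± 0.16), Cnn2 (1.13 ± 0.11) and Acta2 (0.61 ± 0.10). Ccn1 read 10.97, 8.81 and 9.22 with vehicle, 10.50, 8.80 and 9.18 with scrambled siRNA, and 9.84, 8.69 and 9.19 with CD24 siRNA, so the set 1 arrays stood above the other 6. Without scrambled replicate 1, 4 ATF4 and 3 unfolded protein response genes were higher, and without vehicle replicate 1, 6 and 4. The unfolded protein response count was 4 without scrambled replicate 3 or CD24 siRNA replicate 1, and the contractile count 5 without vehicle replicate 1 or CD24 siRNA replicate 1.

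Of 17 collagen genes, 8 were higher and 0 lower in set 1 (median 0.26), and 0 were higher and 5 lower in set 2 than in set 3 (median -0.09). Of the collagens, 3 were higher in set 1 without scrambled replicate 1, scrambled replicate 3, vehicle replicate 1 or CD24 siRNA replicate 1, 4 without CD24 siRNA replicate 2 and 5 without CD24 siRNA replicate 3. Leaving out any replicate 2 or 3 array left 2 of them lower in set 2, or 3 for vehicle replicate 3. Col1a1 was 0.55 ± 0.09 higher in set 1. Col6a3 was 10.25, 9.26 and 10.55 with vehicle, 10.34, 9.82 and 10.45 with scrambled siRNA, and 10.64, 9.36 and 10.40 with CD24 siRNA, with the set 2 array the lowest of each group. Of 25 other matrix glycoprotein and proteoglycan genes, 7 were higher and 0 lower in set 1 (median 0.09), and 2 were higher and 3 lower in set 2 than in set 3 (median -0.05). The lower count was 0 without CD24 siRNA replicate 2 or 3 and 1 without scrambled replicate 3, vehicle replicate 2 or vehicle replicate 3. The higher count was 0 without scrambled replicate 2, scrambled replicate 3 or vehicle replicate 2. The proteoglycan gene Aspn was 1.77 ± 0.23 higher in set 1. Ogn, another small proteoglycan, was highest in set 1 and lowest in set 3 of each group: 9.23, 8.45 and 6.39 with vehicle, 9.05, 7.77 and 6.39 with scrambled siRNA, and 7.80, 7.08 and 6.40 with CD24 siRNA. Postn, which encodes periostin, followed the same order, with 11.33, 10.62 and 8.53, then 11.32, 10.67 and 9.14, then 11.29, 10.11 and 9.66. Without the scrambled replicate 2, scrambled replicate 3 or vehicle replicate 2 array, the difference between sets 2 and 3 in Ogn and Postn did not pass.

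**Figure D3:**
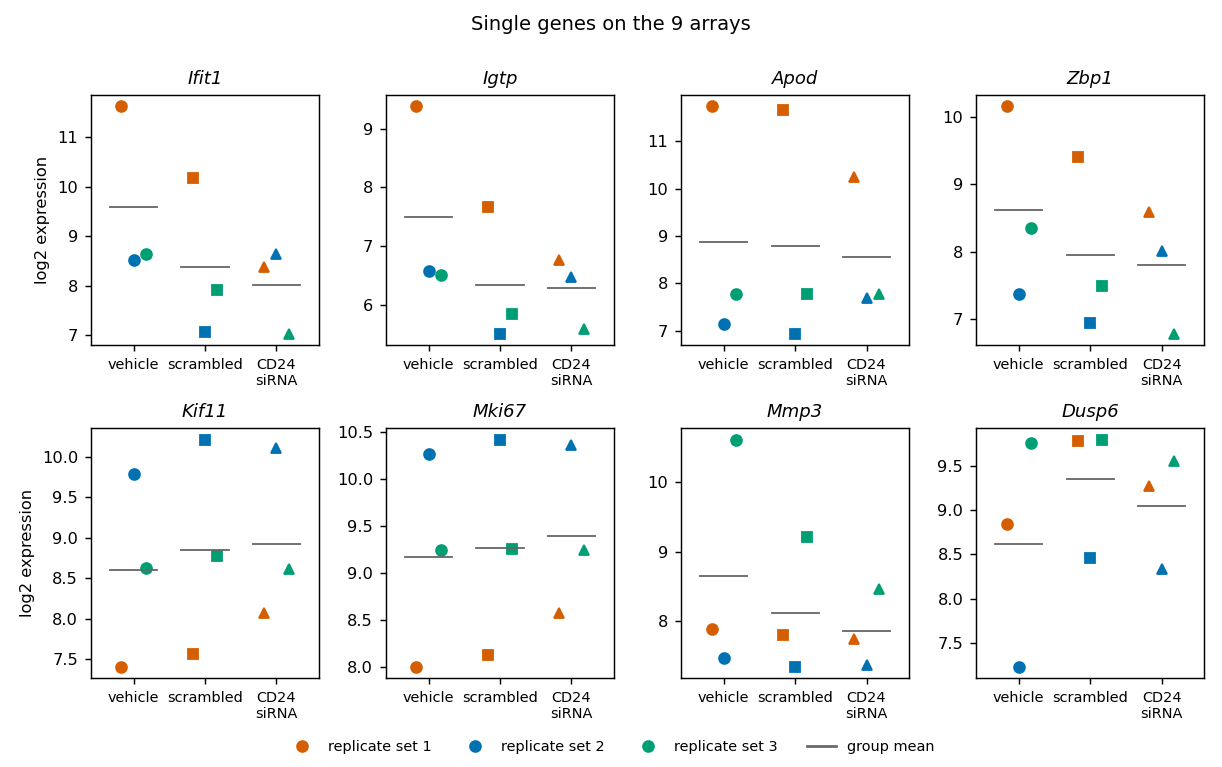
Log2 expression of 8 genes on the 9 arrays, by group on the horizontal axis and replicate set by colour. Grey lines are group means. Ifit1, Igtp and Zbp1 are high on the vehicle and scrambled arrays of set 1, Kif11 and Mki67 are separated into 3 levels by set, and Mmp3 is highest in set 3 of every group.

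The largest difference of all 12630 genes was in Apod, which encodes a lipocalin that carries lipids. It read 11.74, 7.13 and 7.76 with vehicle, 11.66, 6.94 and 7.76 with scrambled siRNA, and 10.25, 7.69 and 7.76 with CD24 siRNA. The 3 set 1 arrays lay far above the others, a difference of 3.71 ± 0.30 or 13.1-fold (limma adjusted p = 0.000316). Its 3 set 3 arrays held the same deposited value to 4 decimals. The dipeptidase gene Dpep2 was 2.02 ± 0.12 higher in set 1.

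Among protein-coding genes lower in set 1, Lyz1 had the largest difference (-2.16). Uprt, related to uracil phosphoribosyltransferases, was 9.82, 11.68 and 11.20 with vehicle, 8.17, 11.34 and 11.08 with scrambled siRNA, and 9.48, 11.27 and 11.09 with CD24 siRNA. The 3 set 1 arrays lay below the other 6, and the difference was -2.12 ± 0.23. Btbd35f1 (-2.05), Gm10354 (-1.95), Ssxb8 (-1.86), Zfp972 (-1.79) and Speer4c (-1.69) followed. Each of these and Lyz1 belongs to a family with near-identical copies, so their probe sets may read several genes. Lyz1 varied within a group by set: 5.96, 9.41 and 8.15 with vehicle, 6.19, 6.68 and 7.52 with scrambled siRNA, and 5.62, 8.50 and 8.26 with CD24 siRNA. Its set 1 difference was -2.82, -0.91 and -2.76 in those groups. Btbd35f1 (-2.70, -0.88 and -2.57) and Speer4c (-2.32, -0.73 and -2.04) came close to these values. Gm10354 (-2.05, -1.89 and -1.91), Zfp972 (-2.54, -1.17 and -1.66) and Ssxb8 (-0.71, -2.80 and -2.07) were less alike. Whether the genes that varied alike are separate differences was not tested. Elovl6, a fatty acid elongase, was lower (-1.51 ± 0.12), while the fatty acid binding protein Fabp5 was higher (1.24 ± 0.13). Of 19 cholesterol synthesis genes, 1 was higher and 7 lower in set 1 (median -0.25), with Fdft1 (-0.69) and Lss (-0.65) lower and Ebp (0.71) higher. Of 21 lipid synthesis and storage genes, 4 were higher and 3 lower, near the shares over all genes tested (14.0% and 9.11%). The list median was 0.04 against 0.03 over all genes, and 2 members were higher without scrambled replicate 1. Of the cholesterol genes 4 were lower without scrambled replicate 3 or vehicle replicate 1, and 3 without CD24 siRNA replicate 1.

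The largest differences between sets 2 and 3 were in genes higher in set 3. Ivl, the gene of involucrin, read 7.36, 6.72 and 9.84 with vehicle, 7.59, 7.38 and 9.87 with scrambled siRNA, and 7.84, 7.27 and 9.21 with CD24 siRNA. Its 3 set 3 arrays lay above the other 6, and set 2 was lower than set 3 by a difference of -2.52 ± 0.21 (limma adjusted p = 0.00111). Mmp3, a secreted protease of matrix, read 7.88, 7.47 and 10.61, then 7.80, 7.34 and 9.21, then 7.74, 7.37 and 8.46 in the same order. Its difference was -2.04 ± 0.33, and set 3 was the highest array in each group. Hp, the haemoglobin scavenger haptoglobin, differed by -1.79 ± 0.15, and the matrix gene Dpt by -1.76 ± 0.20. The set 3 arrays also held more Cd14, a co-receptor for lipopolysaccharide, at 8.91, 9.79 and 9.42 against 8.00, 8.13 and 7.88 in set 2 (-1.37 ± 0.14). Cd14 was the only macrophage marker of 6 tested that passed.

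Of 18 targets and feedback inhibitors of the ERK pathway, 1 was higher and 6 lower in set 2 than in set 3 (median -0.38), and 11 did not pass. The list was chosen after values were seen, among them those of Dusp6 and Etv1. In the list, for 11 the set 2 array lay below the set 3 array in each group (22.4% of all genes tested). The list median was largest with vehicle, at -1.01, against -0.22 with scrambled siRNA and -0.11 with CD24 siRNA. Over all genes tested these medians were -0.09, 0.03 and 0.02. Dusp6, a phosphatase that switches ERK off, read 8.85, 7.23 and 9.76 with vehicle, 9.79, 8.46 and 9.80 with scrambled siRNA, and 9.27, 8.33 and 9.55 with CD24 siRNA. The set 2 array was the lowest in each group, and the difference from set 3 was -1.70 ± 0.22. Dusp4 (-1.17), Spry4 (-1.03), Spry2 (-0.67) and the transcription factor Etv1 (-1.71) were lower too. Of 23 immediate early genes 0 were higher and 3 lower in set 2 than in set 3 (median -0.30). All 23 of these differences were negative, as were 6683 of the 12630 genes tested. Their median too was largest with vehicle, at -0.63, against -0.17 with scrambled siRNA and -0.07 with CD24 siRNA. In set 1, 7 of the 23 were higher. Without scrambled replicate 2, scrambled replicate 3 or vehicle replicate 2, 3 of the ERK list were lower in set 2, and without scrambled replicate 1, 2 immediate early genes were higher in set 1. The set 2 minus set 3 difference was -1.44 ± 0.24 for the fatty acid binding protein gene Fabp4 and -0.79 ± 0.11 for the Wnt ligand Wnt5a, while the adipogenic receptor Pparg was 0.70 ± 0.12 higher in set 2. These are single genes. Of 17 pro-adipogenic regulators 1 was higher in set 2 than in set 3 and 0 lower (median -0.07). The counts were 1 and 1 of 21 lipid synthesis and storage genes, and 0 and 2 of 22 anti-adipogenic and pre-adipocyte genes. Set 2 also held more Sorcs1 (1.56 ± 0.14), the pyruvate dehydrogenase kinase Pdk4 (1.44 ± 0.18) and Cdsn (1.37 ± 0.13).

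With IBMX/Dex, 14 genes rose and 1 fell among the 19 cAMP and CREB targets above the filter (14.2% and 15.0% of all genes tested). Among the 19 glucocorticoid receptor targets, 12 rose and 3 fell. The median IBMX/Dex minus vehicle difference was 0.87 in set 1, 1.10 in set 2 and 1.12 in set 3 over the cAMP list, and 0.72, 0.69 and 0.34 over the glucocorticoid list. The set differences were tested for dependence on treatment, with 2 residual degrees of freedom, which come only from the scrambled and CD24 siRNA arrays. Vehicle has 1 array a set, so the spread of vehicle arrays within a set was not measured and a passing gene is not shown to depend on treatment. For set 1 against sets 2 and 3, 1 of 12630 genes passed in limma (0.00792%, with 1012 at an unadjusted p under 0.05), and for set 2 against set 3, 4 passed (0.0317%, with 2398 unadjusted), 1 with a higher difference under IBMX/Dex (0.00792%) and 3 with a lower one (0.0238%).

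**Figure D4:**
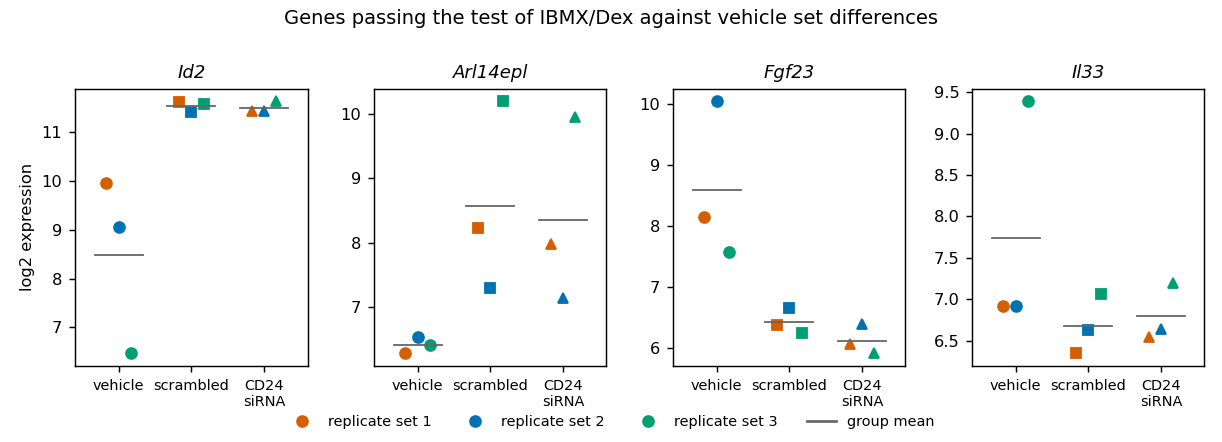
Log2 expression of the 4 genes that passed the test of IBMX/Dex against vehicle set differences, by group on the horizontal axis and replicate set by colour. Id2 varies between sets with vehicle and hardly with IBMX/Dex, Arl14epl does the reverse, and Fgf23 and Il33 stand high in 1 vehicle array. Arl14epl with vehicle and Fgf23 with IBMX/Dex lie near the filter level of 6.51.

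Id2, an inhibitor of basic helix-loop-helix transcription factors, passed for both. It read 9.95, 9.05 and 6.47 with vehicle, 11.62, 11.42 and 11.58 with scrambled siRNA, and 11.43, 11.43 and 11.63 with CD24 siRNA. The sets were close under IBMX/Dex and far apart with vehicle, so its rise with IBMX/Dex was 1.58 in set 1, 2.37 in set 2 and 5.14 in set 3. Arl14epl read 6.29, 6.54 and 6.41 with vehicle, 8.23, 7.30 and 10.20 with scrambled siRNA, and 7.98, 7.14 and 9.95 with CD24 siRNA, close with vehicle and highest in set 3 with IBMX/Dex. Fgf23, a phosphate-regulating hormone, stood at 10.05 on the vehicle replicate 2 array against 8.15 and 7.57 on the other vehicle arrays, and between 5.91 and 6.65 with IBMX/Dex. Il33, an alarmin cytokine, stood at 9.39 on the vehicle replicate 3 array against 6.92 and 6.92, and between 6.35 and 7.20 with IBMX/Dex. The Arl14epl values with vehicle, the Fgf23 values with IBMX/Dex and several of those of Il33 lay near 6.51, the level of the filter. So did the Id2 value of 6.47. Set differences at such low values could go unseen. None of these 4 passed without the scrambled replicate 1 array or without the CD24 siRNA replicate 1 array.

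The share of genes called in set 1 differed with the length of the gene on the genome, which was examined after the values were seen and is given with no test. Of 1594 protein-coding genes spanning under 5 kb, 23.5% were higher in set 1 and 4.64% lower. The shares were 17.7% and 6.73% of 3879 genes of 5 to 20 kb, 9.49% and 10.8% of 4828 genes of 20 to 100 kb, and 6.51% and 13.3% of 1352 longer genes. Between sets 2 and 3 the higher share was 1.32% in the shortest class and 3.25% in the longest, and the lower share 2.45% and 3.55%. Whether gene span had a part in the higher values of ribosomal protein, oxidative phosphorylation and small RNA genes in set 1 was not tested.

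**Figure D5:**
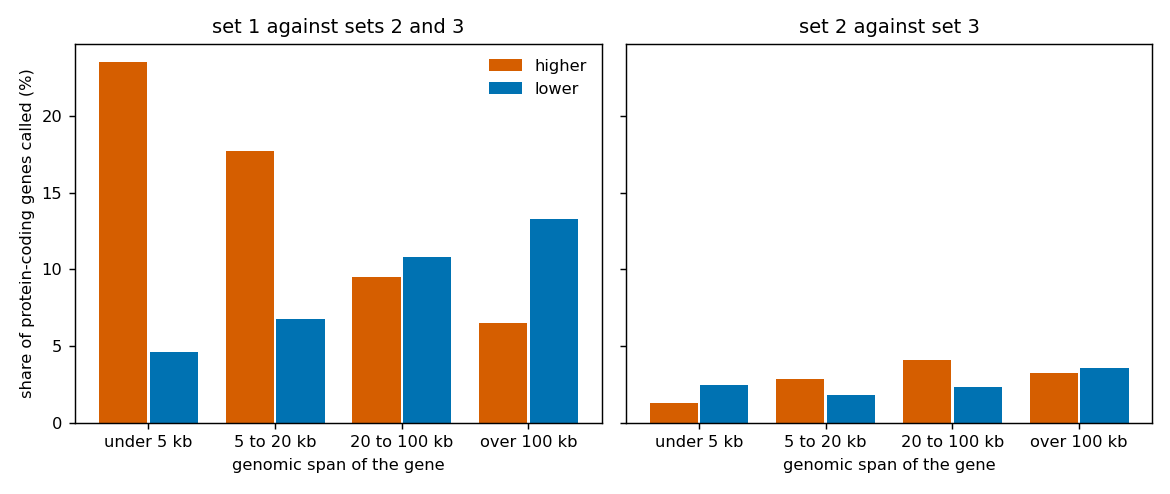
Share of protein-coding genes called higher (orange) or lower (blue) at a limma adjusted p under 0.05, by the gene's span on the genome, for set 1 against sets 2 and 3 (left) and set 2 against set 3 (right). At left the share called higher falls from 23.5% to 6.51% as span grows while the share called lower rises from 4.64% to 13.3%.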

How the data were processed

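The authors deposited log2 values for 41345 probe sets, made with RMA and the oligo package, per the submitters' processing notes (versions: not given in the sources used here). RMA evens out the arrays (medians 6.47 to 6.56), so a general shift of transcripts would not show. The spread of the deposited values was less even, with interquartile ranges from 2.52 (vehicle replicate 2) to 2.76 (CD24 siRNA replicate 1). After quantile normalization 3636 genes passed for set 1 in place of 2923. Values were used as deposited. A single gene symbol was listed for 23521 probe sets, more than one for 1814, and 16010 were unnamed here. The brightest probe set stood for each of 22180 genes. Genes entered the tests if at least 3 of the 9 arrays reached 6.51, the median over the whole table.

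Group and replicate number were additive terms in limma 3.58.1 (R 4.3.3; lmFit, eBayes), with Benjamini-Hochberg adjustment over 12630 genes and a threshold of 0.05. Dependence on treatment was fitted with the vehicle arrays' set differences apart. The titles give the replicate numbers. Deviations from group means correlated across genes between arrays of a number at 0.377 to 0.732, against -0.589 to 0.116 for other numbers and groups, which with the titles was taken as pairing. The deviations of a group cancel out, so positive values within a number push the others down and the contrast is partly built in. Each number also shares a code in the descriptions.

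The named genes are the 12 highest and 12 lowest passing protein-coding differences of each set comparison with 1 sign in all 3 groups, the 6 with the smallest p per treatment dependence, Cd24a, and list members. The members and lists were chosen with earlier results of these data known. Symbols matched through RefSeq (GRCm38.p6). The fits were tested on simulated data. Alternatives were the filter, quantile normalization, median centring, probe set means, an intensity trend, robust eBayes, leaving out each array or group, and no group means or block.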

Additional observations from a re-analysis of the deposited data

Results flagged for a closer look

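The 5 results below are set differences that were unequal on the IBMX/Dex and vehicle arrays by a limma test, whose error comes only from the IBMX/Dex arrays. For Id2 the set 1 difference under IBMX/Dex minus that with vehicle was -2.18 (adjusted p = 0.0341), and for its set 2 minus set 3 difference this was -2.77 (adjusted p = 0.00870). For the set 2 minus set 3 difference it was -2.99 for Arl14epl (adjusted p = 0.00513), -2.04 for Fgf23 (adjusted p = 0.0222) and 1.97 for Il33 (adjusted p = 0.0307). For Id2, Fgf23 and Il33 the spread lay in the vehicle arrays, each of which is 1 array per set, and for Arl14epl in the IBMX/Dex arrays. The arrays with little spread in Arl14epl and Fgf23, and several of those in Il33, read near the filter level of 6.51.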

How the results depend on the processing

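Among the highest and lowest differences, the treatment dependence genes and Cd24a, no gene changed sign in any alternative run that held it. The signs of other single list members were not followed in these runs. The balance of higher and lower calls turned in none of them for the set comparisons. It did for IBMX/Dex against vehicle (1797 higher and 1899 lower), with 1536 and 1378 at a 75th percentile filter, 1745 and 1591 without scrambled replicate 1, 1731 and 1227 without vehicle replicate 3, and 1710 and 1539 without CD24 siRNA replicate 3. Set 1 against sets 2 and 3 gave 1160 to 3310 genes when 1 array was left out, 1160 without scrambled replicate 1, 1446 without vehicle replicate 1, 1812 without scrambled replicate 3 and 1925 without CD24 siRNA replicate 1. It gave 1619 without the CD24 siRNA group, 725 without the scrambled group and 1060 where group means were not removed. Set 2 against set 3 gave 191 to 557 genes with 1 array left out (191 without scrambled replicate 2, 264 without scrambled replicate 3, 282 without CD24 siRNA replicate 3, 285 without CD24 siRNA replicate 2 and 436 without vehicle replicate 3). It gave 321 with no filter, 1025 after quantile normalization, 180 without the CD24 siRNA group, 90 without the scrambled group and 88 where group means were not removed. Any difference between the 3 sets gave 1415 to 3251 genes with 1 array left out, and 1327, 546 and 793 in those last 3 settings. IBMX/Dex against vehicle gave 2638 to 3336 genes with 1 array left out, 2405 without the CD24 siRNA group, 1994 without the scrambled group and 1505 with no replicate block, against 3696 with the block. The set difference in IBMX/Dex against vehicle gave 0 to 10 genes for set 1 against sets 2 and 3 with 1 array left out, and 0 with no filter and after quantile normalization. For set 2 against set 3 it gave 0 to 27 genes, 1 with no filter, 20 (17 higher and 3 lower) with centred arrays and 12 (9 higher and 3 lower) with an intensity trend, against 1 higher and 3 lower. It was 16 and 6 without scrambled replicate 2, and 20 and 7 without scrambled replicate 3. Its median over all genes was 0.17, and 0.06 after quantile normalization. These dependences could not be fitted without a vehicle array. The cause of these moves was not tested, beyond the fewer arrays or genes that a setting leaves. Slco4a1 did not pass between sets 2 and 3 in 12 alternatives. With 3 arrays a set and 4 residual degrees of freedom, differences under the typical intervals given in the report were in general not detectable. Those intervals are not adjusted for the number of genes, so larger differences could also fail. A set 2 minus set 3 difference of 0.35 in 1110004F10Rik did not pass (limma adjusted p = 0.0673).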

Other observations

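Other lists gave counts nearer the shares over all genes tested, which were 14.0% higher and 9.11% lower in set 1. Of 21 TGF-beta and BMP signalling genes, 5 were higher and 2 lower in set 1 (median 0.14), and 3 were higher without scrambled replicate 1, so the lower count, and the higher count without that array, lay near those shares. Those shares come from all 9 arrays, and without scrambled replicate 1 the higher count over all genes was 764. The BMP-induced inhibitors Id1 (0.86 ± 0.14) and Id3 (0.82 ± 0.10) and the feedback inhibitor Smad7 (0.56 ± 0.10) were higher, and the receptor Bmpr2 was lower (-0.72 ± 0.10).

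Of 20 hypoxia and glycolysis genes, 3 were higher in set 1, and 1 without scrambled replicate 1 or vehicle replicate 1, a count near the share over all genes. All 20 had a negative set 2 minus set 3 difference (median -0.26), as did 6683 of the 12630 genes tested. The list median was -0.45 with vehicle, -0.16 with scrambled siRNA and -0.14 with CD24 siRNA. In limma 0 of the 20 passed that test (11 at an unadjusted p under 0.05). The vasodilator peptide gene Adm was 8.57, 6.23 and 7.69 with vehicle in replicates 1, 2 and 3, 8.88, 6.32 and 6.68 with scrambled siRNA, and 7.50, 6.01 and 6.73 with CD24 siRNA. Its set 1 array was the highest in each group, by 1.71 ± 0.22. Of 20 lysosome and autophagy genes, 3 were lower in set 2 than in set 3 (2.30% of all genes tested), namely Npc2 (-0.41 ± 0.09), Hexa (-0.55 ± 0.12) and Ctsd (-0.43 ± 0.09). That count was 1 without vehicle replicate 2, and 0 without any other replicate 2 or 3 array or without CD24 siRNA replicate 1.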
